A study of Drosophila melanogaster with 18 samples.

Results

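String, the Cdc25 phosphatase encoded by *stg*, and 9 partner genes of the machinery that takes a cell into and through mitosis were followed at the mRNA level in Drosophila S2 cells before and after heat shock (HS). The 10 genes were chosen by name from the 15602 genes of the table, with their change between the 2 conditions already known, so that their values in this contrast are a description, and where the fit called one of them this is stated as part of that description and supports nothing. They are *stg*, *Cdk1*, the cyclin genes *CycA*, *CycB* and *CycB3*, the kinase genes *polo* and *Myt1*, and *fzy*, *fzr* and *BubR1*. RNA-seq of polyadenylated RNA was carried out on S2 cells that had received no double-stranded RNA, without HS (NHS) and after 30 min of HS, in 2 biological replicates per condition. S2 is a single haemocyte-like embryonic line. It was grown in M3+BPYE medium with serum, and HS was started by adding an equal volume of serum-free medium at 48 °C, after which the culture was kept at 37 °C. The NHS cells are not described as receiving serum-free medium, so that dilution and serum change cannot be told apart from the temperature.

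Entry into mitosis depends on Cdk1, a kinase that is active only when bound to a mitotic cyclin. The kinases Wee1 and Myt1 hold the complex inactive by adding inhibitory phosphates to Cdk1, and String removes them. In the Drosophila embryo, transcription of *stg* sets the time at which cells divide after the early maternal cycles, whereas the cyclins are then destroyed by the anaphase-promoting complex (APC/C) together with its activators Fizzy and Fizzy-related.

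Levels are FPKM, fragments per unit of transcript length and of library size, which are scaled to transcript length and to the library, so that they can be set side by side between genes. They are relative to the other mRNAs of a library, and in bulk RNA a change in the share of cells that express a gene and a change in RNA per cell cannot be told apart. Log2 fold changes are differences of the mean log2(FPKM + 1), HS minus NHS, with the standard error (SE) from a limma fit to the 7815 genes that averaged 1 FPKM or more over the 4 libraries. A gene was called when its adjusted p, over all 7815 genes, was under 0.05. All 10 genes passed the minimum of 1 FPKM. The conditions were as labelled, since 11 of 11 inducible heat shock protein genes were called higher after HS, with log2 fold changes from 3.05 to 8.81. Of the haemocyte markers, *srp*, *Pxn*, *crq* and *ush* lay between 58.1 and 141 FPKM, *Hml*, *He*, *Ppn*, *vkg* and *Col4a1* lay between 1.09 and 22.5 FPKM, and *NimC1* was at or below 0.0399 FPKM. *Hml* (5.69 and 22.5 FPKM in NHS, 4.45 and 20.7 FPKM after HS) and *He* (5.97 and 1.09 FPKM, then 5.36 and 1.21 FPKM) differed more between replicates than between conditions, and 0 of the 9 that could be tested were called (and, before adjustment, 0 had a limma p under 0.05). Of 8 markers of other tissues, 6 did not reach the minimum, and the neuronal gene *elav* was present at 7.97 to 11.2 FPKM. The germline gene *bam* had 0.941 and 1.02 FPKM in NHS and 2.50 and 1.77 FPKM after HS, both higher (adjusted p = 0.246 from limma, not called). The part of other cell types in the results was not tested.

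*stg* was the member whose level differed most between the conditions. Its FPKM was 41.2 and 25.5 in the NHS replicates and 172 and 142 in the HS replicates. Both HS libraries lay far above both NHS libraries, the lower HS value being 3.45 times the higher NHS value. The means were 33.3 ± 11.1 FPKM in NHS and 157 ± 20.8 FPKM after HS (SD, n = 2), a ratio of 4.71. On the log2(FPKM + 1) scale the difference was 2.23 (SE 0.26). Among all tested genes, *stg* moved from percentiles 67.9 and 54.0 of the levels in the NHS replicates to percentiles 93.2 and 91.6 after HS.

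In the fit across all genes, which included the members, *stg* was the 1 member of 10 past the threshold, in a table in which 259 of 7815 genes (3.31%) were called, 137 higher (1.75%) and 122 lower (1.56%). Since the gene was chosen in this contrast, this is no test of it and nothing is read from that count. It was no longer past the threshold when any 1 of the 4 libraries was left out (0 members called in each case), with the log2 fold change then between 1.90 and 2.57. The same held at an adjusted p under 0.001, the threshold that the study used for its own test. *stg* had the least even NHS replicates of the 10 genes, replicate 1 being 1.62 times replicate 2.

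Of the 7815 tested genes, 86 had a log2 fold change at least as large as that of *stg*, *stg* included, a place that follows from the choice of the gene.

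**Figure D1:**
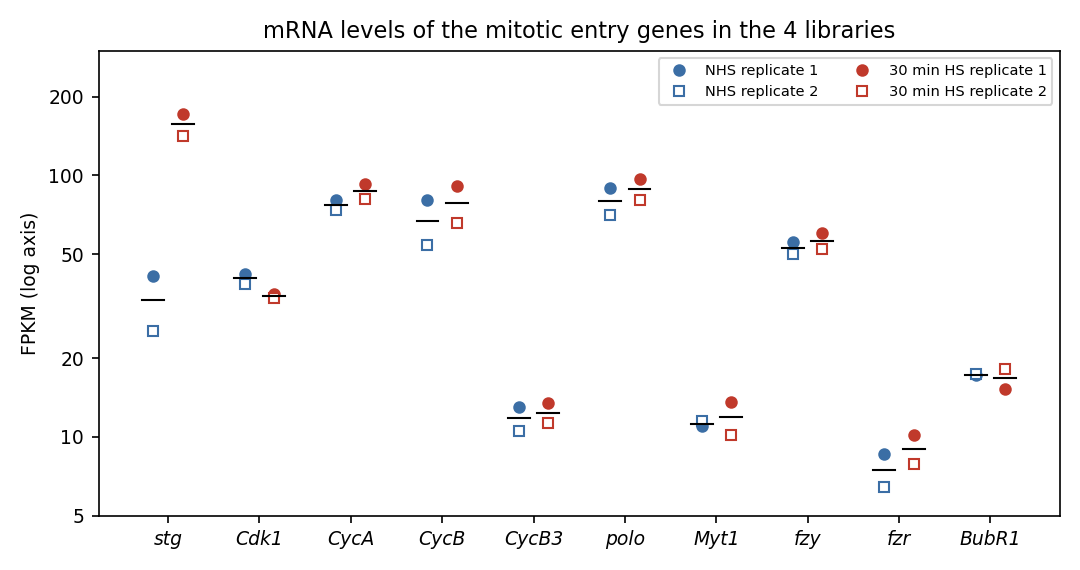
FPKM of the 10 genes on a log axis in the 4 libraries (blue, NHS; red, 30 min of HS; filled circles, replicate 1; open squares, replicate 2; black bars, means of 2). The red points of *stg*, at 172 and 142 FPKM, lie apart from its blue points at 41.2 and 25.5 FPKM, whereas red and blue points lie close together for the 9 other genes.

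The annotation places *stg* on the minus strand of chromosome arm 3R, with 2 transcripts. The reference transcript has 2747 nt in 2 exons separated by 1 intron, of which 1437 nt are coding, 872 nt are 5′ UTR and 435 nt are 3′ UTR. No other annotated gene overlaps it. The nearest gene in the table, *SP1029*, which lies 1375 nt away on the same strand, had 25.0 and 30.9 FPKM in NHS and 21.8 and 23.7 FPKM after HS (log2 fold change -0.28, SE 0.14, adjusted p = 0.422 from limma). The nearest expressed gene on the other side, *Cnx99A*, lies much farther off, at 59454 nt. It differed by 0.02 (SE 0.11, adjusted p = 0.97 from limma). Neither of these genes was called.

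The 9 other members differed little between the conditions. Their log2 fold changes ran from -0.21 to 0.24 with a median of 0.09, 7 being above 0 and 2 below. All tested genes had a median of -0.02 with quartiles of -0.17 and 0.13. Scaling the libraries to equal FPKM totals lowered the median over all tested genes to -0.16, and with that common shift *CycB3*, *Myt1* and *fzy* came below 0. *Cdk1*, *CycA* and *fzr* kept their sign under all 14 alternative settings that gave a fold change. Settings that changed only the minimum, the variance moderation or a term for replicate number cannot alter a fold change. They are no check of the sign. Of the 10 genes, *stg* and *CycA* had both HS libraries above both NHS libraries (20.5% of all tested genes) and *Cdk1* had both below (25.6%).

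*Cdk1*, the kinase whose activation is entry into mitosis itself, had 42.1 and 38.6 FPKM in NHS and 35.3 and 34.0 FPKM after HS. Both HS values lay below both NHS values, by a small amount (log2 fold change -0.21, SE 0.10). Its means were 40.4 ± 2.45 and 34.7 ± 0.94 FPKM (SD, n = 2). Over the alternative settings the difference ran from -0.36 to -0.14.

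*CycA*, the cyclin that is required for mitosis in the fly embryo, had 80.5 and 74.0 FPKM in NHS and 92.5 and 81.2 FPKM after HS. Both HS values were higher, but the lower HS value was only 1.01 times the higher NHS value (log2 fold change 0.17, SE 0.11). *CycB*, which accumulates before mitosis and is destroyed at anaphase, had 80.3 and 54.2 FPKM in NHS and 90.8 and 65.6 FPKM after HS. Its groups overlapped, and the replicates of 1 condition differed by more than the conditions did (log2 fold change 0.22, SE 0.26). *CycB3*, the third mitotic cyclin, had 13.0 and 10.5 FPKM in NHS and 13.5 and 11.3 FPKM after HS (log2 fold change 0.07, SE 0.16), again with overlap. *CycB* exceeded *CycB3* in FPKM by 6.19 and 5.14 times in NHS and by 6.73 and 5.82 times after HS, so that the balance of these B-type cyclin mRNAs overlapped between conditions. The ratio of *CycA* to *Cdk1* was 1.91 in each NHS replicate and 2.62 and 2.39 after HS, both higher. This follows from the *CycA* and *Cdk1* values above and is no separate observation.

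*polo*, which encodes the kinase that promotes Cdk1 activation and builds the spindle poles, had 89.9 and 70.5 FPKM in NHS and 96.9 and 80.8 FPKM after HS. The groups overlapped (log2 fold change 0.15, SE 0.17). *Myt1*, the membrane-bound kinase that adds inhibitory phosphates to Cdk1 and so opposes String, had 11.0 and 11.5 FPKM in NHS and 13.6 and 10.2 FPKM after HS. Its HS replicates lay on either side of the NHS values (log2 fold change 0.07, SE 0.16), and without HS replicate 1 the log2 fold change was -0.12, against 0.26 without HS replicate 2.

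*fzy* (Cdc20), the APC/C activator that triggers anaphase, had 55.8 and 50.0 FPKM in NHS and 60.3 and 52.2 FPKM after HS, with overlapping groups (log2 fold change 0.09, SE 0.12). The *fzy* gene overlaps *cact*, on the opposite strand, which had 77.2 and 83.7 FPKM in NHS and 46.5 and 54.7 FPKM after HS (log2 fold change -0.66, SE 0.12, adjusted p = 0.0843 from limma, not called). The library kit and the alignment kept strand, but no strand setting is stated for the step that gave the FPKM. The part of *cact* in the *fzy* values was not tested. *fzr* (Cdh1), the activator that keeps cyclins low after mitosis and in G1, was the scarcest member, with 8.57 and 6.41 FPKM in NHS and 10.2 and 7.89 FPKM after HS (log2 fold change 0.24, SE 0.20). The *fzy* level was 6.50 and 7.80 times that of *fzr* in NHS and 5.93 and 6.61 times after HS, ranges that overlap. *BubR1*, a kinase-related protein of the spindle checkpoint that restrains Fizzy until chromosomes are attached, had 17.2 and 17.4 FPKM in NHS and 15.3 and 18.2 FPKM after HS. The HS replicates enclosed the NHS values (log2 fold change -0.05, SE 0.12).

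The order of levels changed in 1 place, that of *stg*. In NHS the order of mean FPKM, from the highest, was *polo*, *CycA*, *CycB*, *fzy*, *Cdk1*, *stg*, *BubR1*, *CycB3*, *Myt1* and *fzr*. After HS *stg* stood first and the other 9 kept this order. Of the 9 pairs of neighbours in NHS, 5 overlapped between libraries, which were *polo* with *CycA*, *CycA* with *CycB*, *CycB* with *fzy*, *Cdk1* with *stg*, and *CycB3* with *Myt1*. After HS 3 pairs overlapped, namely *polo* with *CycA*, *CycA* with *CycB*, and *CycB3* with *Myt1*. The HS libraries of *stg* did not overlap those of *polo*, the next member.

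Within a condition, replicate 1 was mostly the higher for the members, but not over all tested genes. Among the 9 members other than *stg*, NHS replicate 1 exceeded NHS replicate 2 in 7, and HS replicate 1 exceeded HS replicate 2 in 8. Over all tested genes these shares were 48.9% and 50.8%. Over the 94 tested genes of the other mitotic lists, given below, they were 64.9% and 56.4%. The summed FPKM of the 9 genes was 398 and 333 in NHS and 428 and 361 after HS, so that the replicates of a condition differed by more than the conditions did. The part of a shared batch in this was not tested, as no source says that equal numbers mark one.

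Ratios within a library do not depend on how the library was scaled. *stg* made up 9.38% and 7.10% of the summed FPKM of the 10 genes in the NHS replicates and 28.6% and 28.2% in the HS replicates. Against *Cdk1*, its substrate, the level of *stg* was 0.979 and 0.659 times in NHS and 4.86 and 4.18 times after HS. Against *CycB* it was 0.513 and 0.470 times in NHS and 1.89 and 2.17 times after HS. The FPKM of *stg* was below that of *Cdk1*, *CycA*, *CycB*, *polo* and *fzy* in both NHS libraries and above each of them in both HS libraries. Against the opposing kinases, *stg* stood at 1.43 and 0.968 times the sum of *Wee1* and *Myt1* in NHS and at 5.21 and 5.61 times after HS. All these ratios share the *stg* values, so they are not separate observations.

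**Figure D2:**
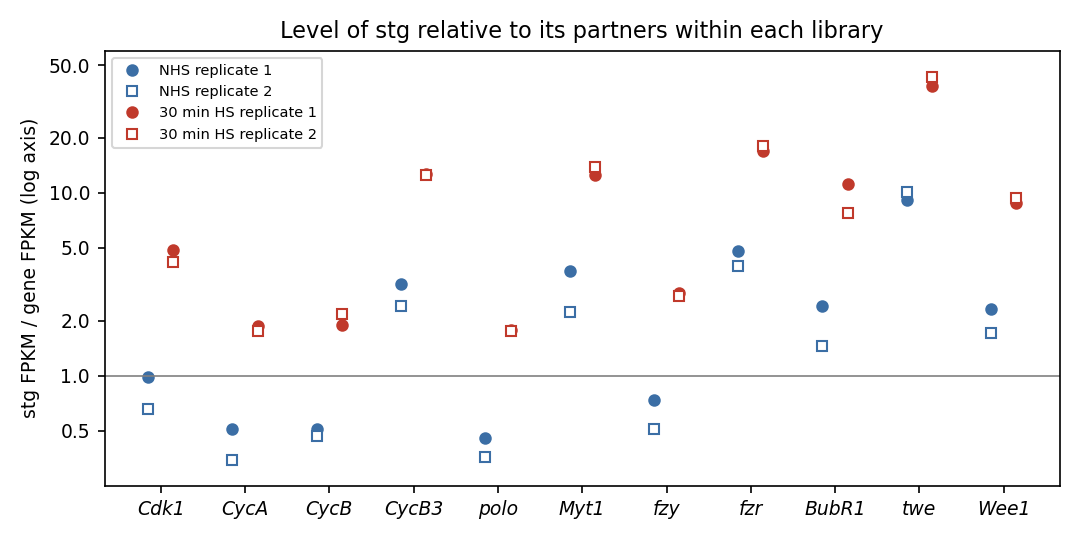
FPKM of *stg* divided by the FPKM of each partner within the same library, on a log axis (blue, NHS; red, 30 min of HS; filled circles, replicate 1; open squares, replicate 2). The red points lie above the blue points for every gene shown, and for *Cdk1*, *CycA*, *CycB*, *polo* and *fzy* they lie on the other side of 1, with *Cdk1* going from 0.979 and 0.659 to 4.86 and 4.18.

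The direct counterparts of String did not show its difference. *twe*, the other Cdc25 gene, which acts mainly in meiosis and in the early embryo, had 4.51 and 2.51 FPKM in NHS and 4.46 and 3.31 FPKM after HS (log2 fold change 0.14, SE 0.28, adjusted p = 0.881 from limma). *stg* exceeded *twe* by 9.14 and 10.1 times in NHS and by 38.5 and 42.9 times after HS. *Wee1*, the nuclear kinase that inhibits Cdk1, had 17.8 and 14.9 FPKM in NHS and 19.4 and 15.1 FPKM after HS (log2 fold change 0.07, SE 0.17, adjusted p = 0.907 from limma). Both genes overlapped between conditions.

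Other mitotic genes were taken from 9 lists by function. Of 99 listed genes, 95 were in the table and 94 were tested, the cohesin gene *vtd* being listed at 0 in all 4 libraries. None was called in either direction (0 of 94, against 3.31% of all tested genes). Before adjustment, the limma p was under 0.05 for 5 that were higher and 1 that was lower, against 7.42% and 10.5% of all tested genes. Their median log2 fold change was 0.03, close to the -0.02 of all tested genes, and the range was -0.40 to 0.53. Both HS libraries were above both NHS libraries for 21 genes (22.3%, against 20.5% of all tested genes) and below for 20 (21.3%, against 25.6%). No listed gene came near the difference of 2.23 seen for *stg*.

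Among 16 regulators of mitotic entry the median log2 fold change was 0.01. *aurA*, the kinase that activates Polo, was the highest, with 30.2 and 24.1 FPKM in NHS and 44.1 and 35.4 FPKM after HS (log2 fold change 0.53, SE 0.17, adjusted p = 0.226 from limma). *trbl*, which promotes the degradation of the String protein in the fly embryo, was the lowest, with 28.2 and 24.0 FPKM in NHS and 23.7 and 19.2 FPKM after HS (-0.27, SE 0.15, adjusted p = 0.485 from limma). Neither passed the test. Both HS libraries were above both NHS libraries for *aurA*, as for 20.5% of all tested genes. For *trbl* both were below, as for 25.6%. The ratio of *stg* to *trbl* was 1.46 and 1.06 in NHS and 7.24 and 7.40 after HS. Among 6 DNA damage checkpoint genes, which can hold back String activity, the log2 fold changes ran from -0.12 for *tefu* (ATM) to 0.27 for *lok* (Chk2), with a median of 0.04.

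The lists of the APC/C, the spindle checkpoint, and the chromosomal passengers with separase gave small values as well. Among 12 APC/C genes the median log2 fold change was -0.18, from -0.40 for the subunit gene *APC7* to 0.27 for *Rca1*, an inhibitor of the complex, and 6 had both HS libraries below both NHS libraries (50.0%, against 25.6% of all tested genes). Among 9 spindle checkpoint genes the median was -0.07, from -0.15 for *Mad1* and *Bub1* to 0.10 for the kinase gene *Mps1*. Among 7 chromosomal passenger and separase genes the median was 0.12, from -0.01 for *Det* to 0.35 for the securin gene *pim* and its partner *thr*. All of these genes missed the threshold.

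Genes of the chromosome and spindle apparatus were similar. Among 10 cohesin and condensin genes the values ran from -0.18 for *barr* to 0.29 for *Cap-H2* with a median of 0.05. Among 6 kinetochore genes the median was 0.22, with *Ndc80* at -0.03 and its partner *Nuf2* at 0.40 (adjusted p = 0.168 from limma), and 3 of 6 had both HS libraries above both NHS libraries (50.0%, against 20.5% of all tested genes). Among 17 spindle and centrosome genes the values ran from -0.29 for *tacc* to 0.37 for *spd-2* with a median of 0.06. Among 11 cytokinesis genes they ran from -0.23 for *Septin2* to 0.52 for *pbl*, which encodes the activator of Rho1 at the cleavage furrow, with a median of -0.01. The shares of 50.0% for the APC/C genes (below) and the kinetochore genes (above) were the highest of the 9 lists. In the other lists the shares ran from 11.1% to 42.9% above and from 0.0% to 33.3% below. No list was tested against the others.

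**Figure D3:**
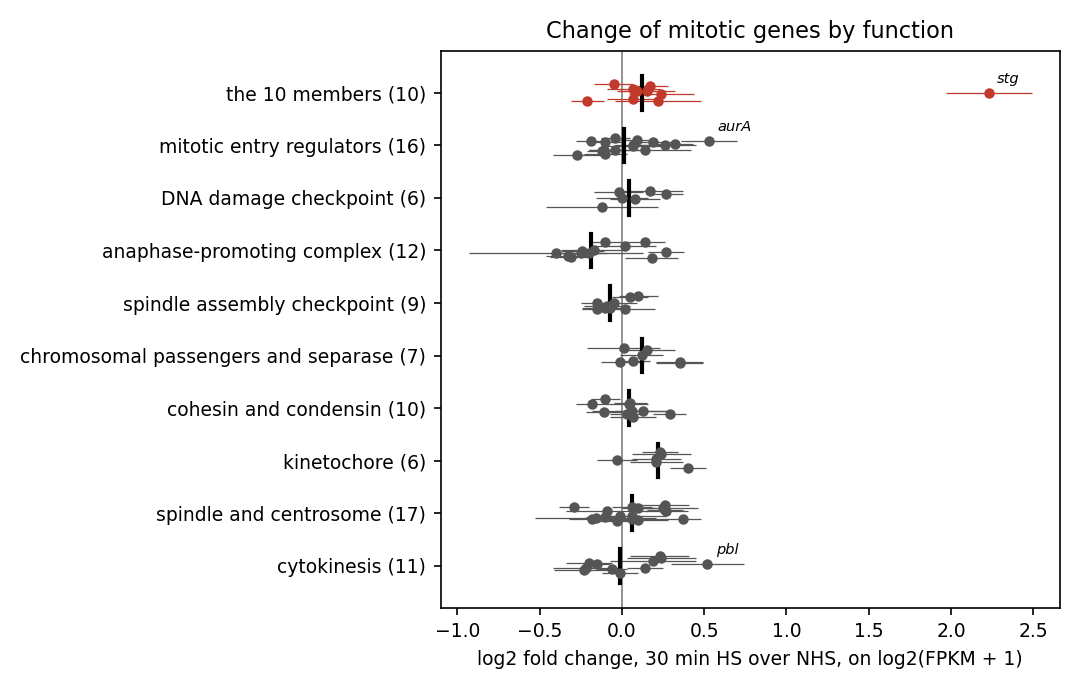
Log2 fold change, 30 min of HS over NHS, on log2(FPKM + 1), for the 10 members (red) and for the tested genes of 9 lists (grey, numbers of genes in brackets); points are genes, bars are SE and black lines are medians. *stg* at 2.23 lies apart, and the other genes lie between -0.40 and 0.53.

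The genes with the pattern most like that of *stg* over the 4 libraries were found by the Euclidean distance between log2(FPKM + 1) values centred on each gene's mean. The nearest were *CG13321* (distance 0.309), *Ppa* (0.403), which encodes an F-box protein, *kek4* (0.414), *Ucp4C* (0.442), of the mitochondrial carrier family, and *Octbeta3R* (0.454), an octopamine receptor. *Ppa* had 4.50 and 3.97 FPKM in NHS and 25.4 and 24.1 FPKM after HS, a ratio of means of 5.85 against 4.71 for *stg*. The other 4 were below 1 FPKM in each NHS replicate and reached the minimum only through their HS values. Their ratios of means were 8.72 for *CG13321*, 32.9 for *kek4*, 18.3 for *Ucp4C* and 86.1 for *Octbeta3R*, so that their likeness to *stg* holds only on the log2(FPKM + 1) scale. With a pseudocount of 5 in place of 1, 0 of these 5 genes remained among the nearest 5, so the list depends on how low values are treated.

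The 10 genes lie on 5 chromosome arms, with 2 on 2L, 2 on 2R, 3 on 3L, 2 on 3R and 1 on X. Their reference transcripts range from 1082 nt for *Cdk1* to 4626 nt for *BubR1*, and the number of introns from 0 for *CycB3* to 6 for *CycA*.

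**Figure D4:**
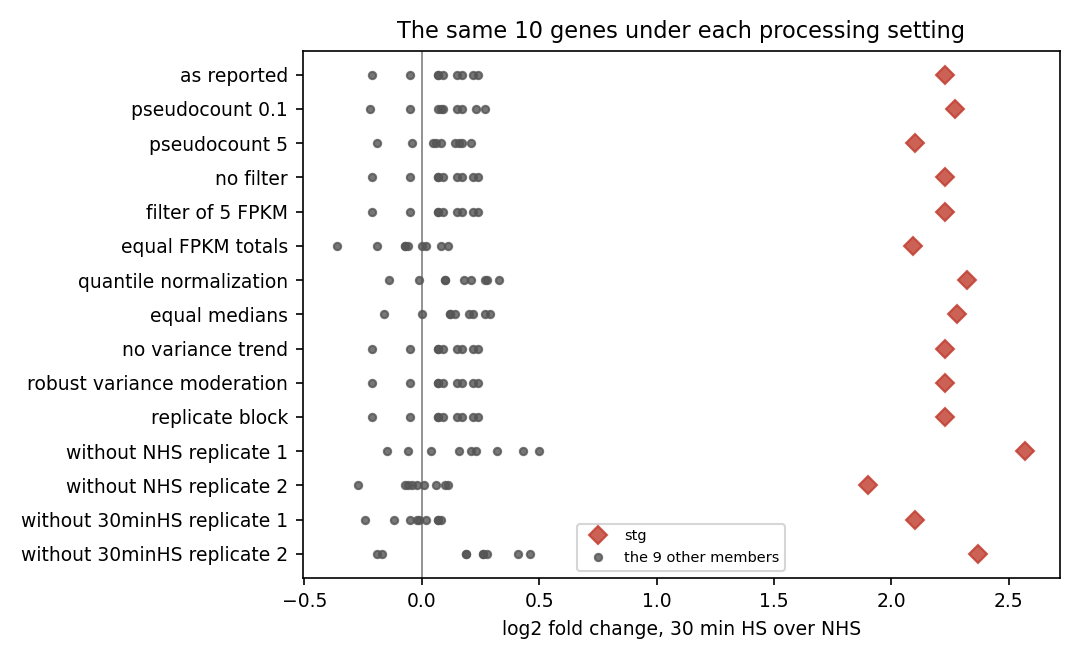
Log2 fold change of *stg* (red diamonds) and of the 9 other members (grey points) as reported and under 14 other ways of processing the same table. *stg* stays between 1.90 and 2.57, and the other members stay between -0.36 and 0.50. Ways that change only the minimum, the variance moderation or the replicate block cannot alter these values.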

How the data were processed

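Illumina adapters were clipped by the authors with fastx_clipper, reads under 20 nt were discarded, and the rest were aligned to dm3 with TopHat2 in a strand-specific mode. The authors deposited FPKM values per gene and library from Cuffnorm; its scaling option and the versions are not given in the sources used here. A total FPKM of 831628 to 926922 per library gives no depth in reads. From the steps of the lowest values (under 0.15 FPKM), depth relative to NHS replicate 1 was estimated at 77.0% for NHS replicate 2 and at 60.1% and 69.3% for the HS replicates. This is approximate, since only 30.4% (NHS replicate 2), 29.2% and 29.8% (HS replicates) of the low genes compared lay at the most frequent ratio. It is a depth only if the values were divided by read totals, which is not stated. No counting interval is given. Names, strand, exon numbers, lengths and overlaps came from Ensembl release 115 (BDGP6). As this is not the build of the files, no coordinates are printed. Symbols were found for 14924 of 15602 genes, and 6 listed genes matched no row.

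Genes averaging 1 FPKM or more were tested on log2(FPKM + 1) with limma 3.58.1 in R 4.3.3 (lmFit, eBayes with trend, condition only, Benjamini-Hochberg), two-sided, after the code had been tested on simulated data. The members and lists were chosen with earlier results of these data known. Named genes are the 10 members, *twe* and *Wee1*, the highest and lowest gene of each list with every gene called, and the 5 nearest profiles. Other genes, such as neighbours and overlapping genes, were named by position. Alternatives changed the pseudocount (0.1, 5), the minimum (none, 5 FPKM), the scaling, the variance moderation, the threshold (0.001, 0.1) and the libraries used. Values per sample in 0 columns were left unused, and the PRO-seq data were not analysed here.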

Additional observations from a re-analysis of the deposited data

How the results depend on the processing

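The log2 fold change of *stg* lay between 1.90 and 2.57 over 14 alternatives, and *stg* was called in 11 of 16. Alternatives that changed only the minimum, the variance moderation or the replicate block cannot alter a fold change. The number of members called higher was 0 without any 1 library and 0 at an adjusted p under 0.001. The count of genes called higher and lower, 137 and 122 as reported, was 132 and 252 with equal FPKM totals, 280 and 116 with no filter, 60 and 89 with a minimum of 5 FPKM, 10 and 0 with the limma threshold at 0.001 (before adjustment, 817 lower genes had p under 0.05), and 242 and 276 with it at 0.1. With robust moderation 190 genes were called lower. With 1 library left out, 16 to 36 were called higher and 6 to 34 lower, and in these fits the lone library is assumed to vary like the others. Of the other members, *CycB*, *CycB3*, *polo*, *fzy*, *Myt1* and *BubR1* changed sign when 1 library was left out. With equal totals the median of the other mitotic genes was -0.10, against -0.16 for all tested genes. With a pseudocount of 5, 0 of the 5 nearest profiles were shared. The cause of these shifts was not tested.

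The conditions share replicate numbers, but whether equal numbers mean a common batch is not stated, and over the 7815 tested genes the correlation of same-numbered deviations was 0.22. With the replicate block 334 genes were called higher and 582 lower, *stg* included, and 2 other mitotic genes, *aurA* and *pbl*, were called higher. With 2 libraries per condition and unknown depth, differences below those called cannot be resolved.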

Other observations

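With a pseudocount of 5, which gives less weight to scarce mRNAs, the profile nearest to that of *stg* was that of *CG3857* (distance 0.389), with 9.01 and 8.48 FPKM in NHS and 58.3 and 46.6 FPKM after HS. On the log2(FPKM + 1) scale its difference was 2.45 (SE 0.14), and both HS libraries lay above both NHS libraries. Both follow from the choice of *CG3857* by its likeness to *stg*. The heat shock protein gene *Hsp67Bc* followed (distance 0.439), with 0.359 and 0.279 FPKM in NHS and 23.3 and 17.9 FPKM after HS. Its ratio of means was 64.5, against 4.71 for *stg*. The rest of the nearest 5 were *Gr63a*, *CG14937* and *PNPase*. Like *Hsp67Bc*, they were below 1 FPKM in each NHS replicate and reached the minimum only through their HS values.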
